A study of Mus musculus with 20 samples.

Results

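Follicular helper T cells (TFH cells) and naive T cells from the peripheral lymph nodes (pLNs) of immunised mice were compared on 6 microarrays, 3 for each cell type, out of the 20 arrays of the series. The arrays were chosen by their labels: naive T cells, and TFH cells carrying the surface epitope GL7, at day 12 (d12) or day 25 (d25) after immunisation. The study asked how follicular helper and follicular regulatory T cells differ in Peyer's patches and in lymph nodes that respond to a protein antigen. All mice carried the Foxp3 reporter allele of the strain B6.Cg-Foxp3<tm1Mal>, in which GFP marks Foxp3+ regulatory T cells. They were of both sexes and 8 to 14 weeks old, they had received the antigen KLH with Alum, and each array held RNA from a pool of 8 to 15 mice. From the B220- CD4+ cells, naive T cells had been sorted as GFP- PD1- GL7- and TFH cells as GFP- PD1hi GL7+. The naive gate used no further marker of naive or memory cells, so memory cells without PD1 and GL7 could enter it, and the TFH gate left out follicular helper cells without GL7. Each array measured 1 sample on a single colour, from 50 ng of RNA for the d12 replicate 1 pair and from 40 ng for the d12 replicate 2 and the d25 pairs. A TFH array and a naive array of each pair lay on the same slide, and all arrays are listed below in the order d12 replicate 1, d12 replicate 2 and d25. The share of probes detected above background was 49.6%, 46.4% and 44.3% on the naive arrays and 54.8%, 48.9% and 45.2% on the TFH arrays. Nothing in the labels says that the pools were of different mice, so the tests below measure the spread between these arrays, and 3 arrays a side limit their precision. On all 3 slides the naive sample lay at array position 1 and the TFH sample at position 2, so cell type and array position cannot be told apart.

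TFH cells are CD4 T cells that enter B-cell follicles after activation and provide B cells in germinal centres with contact signals and cytokines. The transcriptional repressor Bcl6 is central to their formation, the chemokine receptor CXCR5 guides them along CXCL13 into the follicle, and loss of CCR7 frees them from the T-cell zone. Naive T cells recirculate between blood and lymph nodes and are held quiescent by factors such as Klf2 and Foxo1, which maintain the receptors for homing, egress and interleukin 7.

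Both cell types carried their defining markers. Pdcd1, which encodes the gate receptor PD-1, stood at 1297, 1514 and 1527 intensity units on the naive arrays and at 127880, 90409 and 147254 on the TFH arrays. Foxp3, the gene of the reporter, was near background in both cell types, at 192, 123 and 141 on the naive and 94.8, 57.2 and 27 on the TFH arrays, against 30138 ± 4853 (SD, n = 3) in the regulatory T cells (Treg cells) of the same slides. Cd4 stood at 51314, 43060 and 46818 on the naive and 65355, 55109 and 70178 on the TFH arrays. These genes of the gates check the labels and are no findings. Of the arrays, the TFH array of d12 replicate 1 had the most B-cell and plasma-cell signal and the naive array of d12 replicate 1 the least signal of memory genes, which is given in full with the other markers below. An intensity unit here is the normalised brightness of a probe, which orders samples for a given probe but not probes against each other. Since the samples are sorted cells, a higher intensity cannot distinguish more RNA per cell from more cells that hold it.

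The difference between TFH and naive T cells was broad and leaned towards higher expression in TFH cells at large fitted sizes. A gene was called when its log2 difference was at least 1 and its adjusted p in the limma fit was below 0.05. Of 12412 genes tested, 2628 were called (21.2%), 1624 higher (13.1%) and 1004 lower (8.09%) in TFH cells, and the median over all tested genes was -0.056 on the log2 scale. The difference had the same sign on all 3 slides for 2623 of the 2628. All 3 TFH arrays lay above all 3 naive arrays for 24.8% of the tested genes and below them for 26.9%, so such a separation was common. At a fitted log2 difference of at least 4, 239 genes were higher and 40 lower, and at 6 or more 43 were higher and 2 lower. Many of these differences have only a bound: 559 of the genes called higher were below background on all naive arrays and 57 of those called lower were below background on all TFH arrays. For these only a least fold is given where they are named, set from the lowest signal that was well above background. A gene detected on some but not all arrays of a cell type keeps its fitted size. That size then rests in part on signal below background. Below, "log2" with a number after a gene is its fitted log2 difference of TFH minus naive T cells, with its standard error (SE) where given. Of a list of 10 TFH markers, all were called higher, against 13.1% of all tested genes, and 9 of them are not genes of the gate, Pdcd1 being the exception. Of the naive CD4 markers, 7 of 8 were called lower, against 8.09%, and Tcf7 was not called. The counts of every list below are to be read against the same shares, 13.1% higher and 8.09% lower.

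Ascl2, a basic helix-loop-helix factor of follicular helper cells, had the largest fitted difference of all genes, also with each gene that has only a bound set at it. It was below background on all naive arrays, at 58.9, 50.1 and 35.9, and stood at 59656, 24716 and 43331 on the TFH arrays, at least 465-fold higher (limma adjusted p = 2.68e-07). Sostdc1, a secreted antagonist of BMP and Wnt signals, stood at 113, 314 and 237 on the naive arrays and at 91156, 51058 and 74679 on the TFH arrays, a log2 difference of 8.44 (SE 0.36). In neither gene did the arrays of the cell types come near each other. The other genes with the largest rises were Abcc3, a transporter of organic anions (at least 115-fold), the keratin Krt81 (at least 72.1-fold), Fam43a (at least 86.4-fold), the transcription factor Cebpa (at least 153-fold), the meiosis gene Mei1 (at least 58.6-fold), Sccpdh (at least 96.6-fold), the interleukin 1 receptors Il1r1 (at least 48.6-fold) and Il1r2 (log2 7.24), Il21 (log2 7.25) and Rgs16 (log2 7.16). Il1r2, Il21 and Rgs16 were each detected on only 1 of the 3 naive arrays, so their log2 values rest in part on background signal.

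The gene that fell furthest from naive to TFH cells was Igfbp4, a binding protein of insulin-like growth factors. It stood at 8541, 5871 and 6271 on the naive and at 71.2, 61.8 and 88.5 on the TFH arrays, a log2 difference of -6.54 (SE 0.17) with a limma adjusted p of 8.69e-08. Amigo2, an adhesion protein, stood at 1937, 1451 and 1743 on the naive arrays and was below background on all TFH arrays, at least 30.2-fold lower. Next came the AMP deaminase Ampd1 (log2 -5.84), the LIM-domain protein Pdlim4 (log2 -5.75), Lypd6b (log2 -5.16), Lrrc75b (at least 16.9-fold lower), LOC101056168 (at least 12.9-fold), the death-associated kinase Dapk1 (at least 15.3-fold), Fam240a (log2 -4.96), the metalloprotease Adamts14 (log2 -4.92), the sialyltransferase St8sia6 (log2 -4.86) and the myosin light chain Myl10 (at least 10.5-fold). Igfbp4, Ampd1, Fam240a and Adamts14 were each detected on only 1 of the 3 TFH arrays, so their log2 values rest in part on background signal. The plot of single arrays sets 20 genes side by side, among them Tcf7 and Prdm1, whose arrays overlapped.

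**Figure D1:**
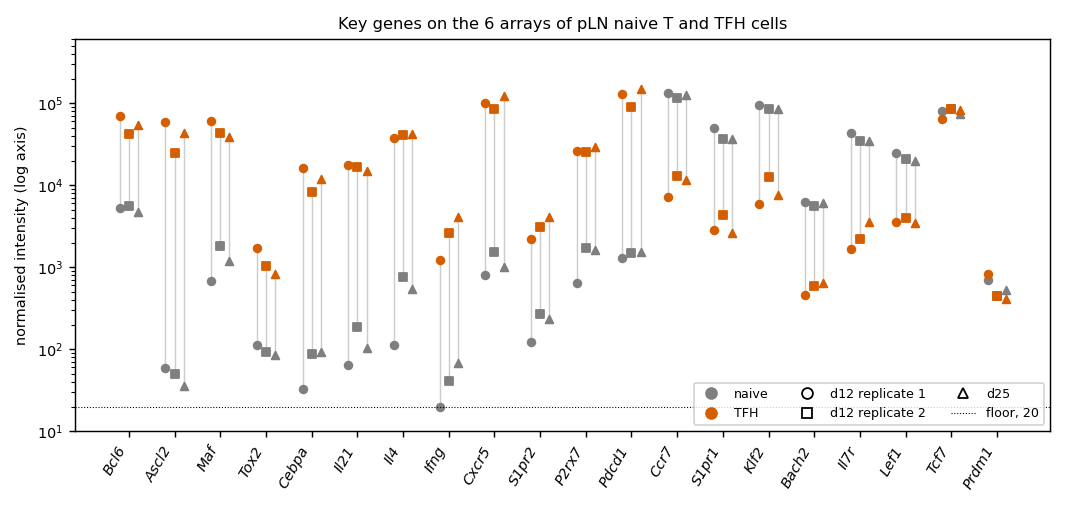
Normalised intensity (log axis) of 20 genes on the 3 naive (grey) and 3 TFH (orange) arrays, with the symbol giving the pair and a grey line joining the arrays of a slide; the dotted line is the floor of 20. Ascl2 is at 58.9 or less on the naive arrays and at 24716 or more on the TFH arrays, Ccr7 is at 116180 or more against 13031 or less, and the arrays overlap for Tcf7 and Prdm1.

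Among 14 transcription factors tied to the TFH fate, 9 were called higher in TFH cells and 1 lower, with a median log2 difference of 2.05. The list was chosen with earlier results of these arrays known. It includes Cebpa, whose upregulation the paper reports from them, so the count is a description. Bcl6 was already measured in naive T cells, at 5293, 5592 and 4689, and stood at 70322, 42692 and 54741 in TFH cells (log2 3.40, SE 0.25, limma adjusted p = 8e-06). Maf, which drives interleukin 4 and 21, stood at 686, 1817 and 1193 against 61486, 43795 and 39142 (log2 5.37, SE 0.43). Cebpa was below background in naive cells at 32.4, 87.6 and 92 and stood at 16033, 8316 and 11947 in TFH cells. These factors separated the cell types on every array, with all TFH above all naive arrays, as in 24.8% of all tested genes. Smaller rises were found for Tox2 (log2 3.57), the B-cell coactivator Pou2af1 (log2 3.34), Irf4 (log2 2.28), Batf (log2 1.82) and Tox (log2 1.65). Tcf7, which acts early in TFH formation, stood at 79554, 86101 and 73784 on the naive and at 64499, 85684 and 81648 on the TFH arrays, a difference of -0.055 (SE 0.11) that did not pass the test. Its partner Lef1 fell, from 24893, 20806 and 20041 to 3567, 4024 and 3474 (log2 -2.57, SE 0.15). Stat3 (log2 0.063), Nfatc1 (log2 0.28) and Id3 (log2 0.63) were not called. With scaling to the 75th percentile alone in place of quantile normalisation, the Tcf7 difference was -0.44 and not called either.

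The promoter of Ascl2 is shown because this gene had the largest difference. In the RefSeq promoter table (GRCm38.p6) it spans chr7:142969215-142969514 on the minus strand, from 250 bases before to 50 bases after the annotated start, and capitals mark CAGGTG, a form of the E-box, the motif class of the family of Ascl2, and CACCC, the core read by Krueppel-like factors such as Klf2, here in its reverse complement GGGTG.
Ascl2: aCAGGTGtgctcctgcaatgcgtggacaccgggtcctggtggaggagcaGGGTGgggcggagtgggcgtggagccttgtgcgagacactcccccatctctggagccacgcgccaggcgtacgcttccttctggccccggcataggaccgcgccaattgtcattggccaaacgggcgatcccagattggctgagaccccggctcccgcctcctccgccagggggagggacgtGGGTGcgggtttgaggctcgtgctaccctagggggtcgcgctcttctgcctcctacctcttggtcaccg
CAGGTG begins at position -249 from the start and the CACCC matches, both on the reverse strand, at -201 and -19. CAGGTG was found in 20.2% of all 32851 promoters of the table and, over the genes that had a promoter there, in 17.7% of the promoters of all tested genes, in 19.5% of those of genes called higher in TFH cells and in 20.6% of those of genes called lower. CACCC was found in 57.5%, 62.4%, 67.1% and 66.5% of the same sets. A match describes the letters only. Cxcr5 and Sostdc1 were not matched in this table.

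Factors of other CD4 fates and antagonists of the TFH fate formed a further list, in which 3 of 14 tested genes were called higher and 3 lower, against 13.1% and 8.09% of all tested genes, with a median of 0.036. Tbx21, the Th1 factor T-bet, stood at 50.8, 226 and 340 on the naive and 504, 948 and 1295 on the TFH arrays (log2 2.43, SE 0.41), and Zbtb32 was at least 22.1-fold higher and Ahr was higher (log2 2.16). Gata3, the Th2 factor (log2 0.64), and Prdm1, whose product Blimp-1 opposes Bcl6 (log2 -0.046), were not called. Prdm1 stood at 703, 451 and 522 on the naive and at 820, 450 and 407 on the TFH arrays. Runx3, a factor of cytotoxic and Th1 cells, fell by 1.90 on the log2 scale, and the other lower members were Klf2 and Foxo1, antagonists of the TFH fate that the next list also holds. Of 15 tested factors of the naive and quiescent state, 9 were lower and none higher, with a median of -1.56. Klf2, which maintains the egress receptor, stood at 95700, 85264 and 86101 in naive and 5952, 12611 and 7579 in TFH cells (log2 -3.42, SE 0.32). Bach2, a repressor of effector programmes, stood at 6253, 5584 and 6027 against 464, 599 and 643 (log2 -3.40, SE 0.17). For both, the lowest naive array lay far above the highest TFH array. Tsc22d3 (log2 -3.44), Satb1 (log2 -2.88), Foxo1 (log2 -1.67), Klf13 (log2 -1.59), Tob1 (log2 -1.56) and Foxp1 (log2 -1.03, or -0.96 and not called without the naive d12 replicate 1 array) were lower as well, whereas Ets1, Btg1, Btg2, Slfn2, Klf3 and Tcf7 were not called.

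Genes of cytokines and of ligands that help B cells were higher in TFH cells in 15 of 22 tested members and lower in none, with a median of 2.52, or 2.10 with the 5 members that have only a bound set at it. Of all tested genes, 13.1% were called higher and 8.09% lower. A member below background in naive cells had little room to be lower. Il21, the cytokine of germinal-centre help, stood at 64.9, 188 and 103 on the naive and 17879, 16636 and 15019 on the TFH arrays (log2 7.25, SE 0.39, limma adjusted p = 1.48e-06). Il4, which drives class switching, stood at 114, 763 and 544 against 37251, 41531 and 41849 (log2 6.79, SE 0.59). Both were narrow in TFH cells, and the Il4 value of naive cells was lowest on the d12 replicate 1 array. Ifng, the Th1 cytokine, was below background in naive cells at 20, 41.5 and 68 and stood at 1234, 2603 and 4143 in TFH cells, at least 31.1-fold higher. Il13 was also called, at 75.2, 158 and 285 in TFH cells, although the bound was only 1.97-fold. Il10, a cytokine that restrains inflammation, stood at 1358, 582 and 125 in TFH cells, at least 6.06-fold above naive cells over the 3 arrays. Il2, the T-cell growth factor, stood at 86.9, 396 and 536 against 1186, 2213 and 1500 (log2 2.58, SE 0.58). Il5, Il9 and Il17a were not detected on any of the 6 arrays.

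Members of the TNF family were split. Tnfsf11, encoding RANKL, stood at 162, 430 and 468 in naive and 4128, 7919 and 8081 in TFH cells (log2 4.33, SE 0.24). Tnfsf14, encoding LIGHT, (log2 4.33), Tnfsf8, the CD30 ligand (log2 2.46), and Tnf (log2 1.99) were higher, and Tnfsf13b, the B-cell survival factor BAFF, was at least 12.9-fold higher. By contrast, Cd40lg, the ligand of CD40 on B cells, stood at 100, 230 and 274 on the naive and 175, 262 and 321 on the TFH arrays and did not pass the test (log2 0.41, SE 0.29), nor did Lta, Ltb or Fasl. The growth factor Csf1 (log2 4.69) and the chemokines Xcl1 (log2 2.21) and Ccl5 (log2 1.11) were higher, the last with a limma adjusted p of 0.0494 and with overlapping arrays. Ccl5 lost its call without the d12 replicate 1 array of naive cells (0.50) or of TFH cells (0.90), without the d25 array of naive cells (1.33) or of TFH cells (0.97) and without the TFR array of d12 replicate 2, and Xcl1 lost its call without slide 3 (1.87). Cxcl13, the ligand of CXCR5, stood at 429, 345 and 78.1 in naive and 1404, 116 and 102 in TFH cells, high on the d12 replicate 1 TFH array alone, and was not called.

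Receptors of positioning and egress moved in both directions: 10 of 22 were higher and 6 lower in TFH cells, with a median of 0.82. Cxcr5, the follicle-homing receptor, stood at 803, 1557 and 1008 on the naive and at 101941, 86197 and 122913 on the TFH arrays (log2 6.57, SE 0.25, limma adjusted p = 3.66e-07). Ccr7, the receptor of the T-cell zone, stood at 134554, 116180 and 126407 against 7114, 13031 and 11615 (log2 -3.61, SE 0.20). The exit receptor S1pr1 stood at 50214, 37063 and 36567 against 2816, 4381 and 2613 (log2 -3.68, SE 0.20). Its relative S1pr2, which confines cells to the germinal centre, went the other way, from 123, 269 and 232 in naive to 2229, 3065 and 4123 in TFH cells (log2 3.95, SE 0.13). P2rx7, an ATP-gated channel, stood at 641, 1724 and 1639 against 26051, 25644 and 29267 (log2 4.47, SE 0.25). For each of these 5 genes all TFH arrays lay on 1 side of all naive arrays. The same held for 24.8% (above) and 26.9% (below) of all tested genes. The inflammatory chemokine receptors Cxcr3 (log2 3.26), Ccr4 (log2 2.88), Cxcr6 (log2 2.70) and Ccr6 (log2 2.45) were higher, and Gpr18 (log2 -3.84), the gut-homing receptor Ccr9 (log2 -2.20), S1pr4 (log2 -1.56) and P2ry14 (log2 -1.45) were lower. Gpr183, the oxysterol receptor EBI2, was not called (log2 0.72, SE 0.17). Cxcr4, the receptor of the germinal-centre dark zone, stood at 1978, 396 and 354 in naive cells, where the d12 replicate 1 array was the highest, and at 2768, 2609 and 3618 in TFH cells (log2 2.19, SE 0.49), and it lost its call without slide 2 (1.92) or without slide 3 (1.60).

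Adhesion molecules and enzymes of selectin ligands were divided too, with 6 of 20 higher, 7 lower and a median of 0.20. The selectin ligand Selplg fell by 2.45 on the log2 scale, whereas Gcnt1 (log2 4.42) and Fut7 (log2 2.90), enzymes that decorate such ligands, were higher. Of the integrins, Itgb3 (log2 -4.68), Itga6 (log2 -2.81), Itga4 (log2 -2.57) and Itgb7 (log2 -1.48) were lower and Itgb1 (log2 2.53) and Itgal (log2 1.85) higher. Cd44, the activation marker that binds hyaluronan, stood at 1309, 1685 and 1961 against 13566, 11230 and 12627 (log2 2.93, SE 0.20).

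Costimulatory and inhibitory receptors were higher in TFH cells in 11 of 23 tested members, Pdcd1 of the gate among them, and lower in 1, with a median of 0.95. Icos, which sustains TFH cells through its ligand on B cells, stood at 13472, 12501 and 12803 in naive and 161858, 60759 and 97187 in TFH cells (log2 2.93, SE 0.26). The inhibitory receptor Tigit stood at 99.9, 156 and 56.3 against 16669, 14296 and 7443 (log2 6.98, SE 0.39), and Lag3 at 178, 332 and 179 against 8230, 7842 and 7324 (log2 5.15, SE 0.31). The largest TFH value of Icos and of Tigit was on the d12 replicate 1 array. All TFH arrays lay above all naive arrays, as in 24.8% of all tested genes. Pdcd1lg2 (log2 4.29), Cd160 (log2 4.07), Ctla4 (log2 3.93), Tnfrsf4, encoding OX40 (log2 2.97), Cd200 (log2 2.50) and Btla (log2 1.51) were higher as well. Cd28 (log2 0.49), Cd27 (log2 0.36), Tnfrsf18 (log2 0.57) and Tnfrsf9 (log2 0.042) were not called, and Cd96 was lower (log2 -1.09), which lost its call without the d12 replicate 1 array of naive cells (-0.95) or of TFH cells (-0.91). In the SLAM family, 4 of 9 tested genes were higher (against 13.1% of all tested genes). They included Sh2d1a, the adaptor SAP needed for lasting contact with B cells (log2 1.92), and Slamf6, the receptor Ly108 (log2 1.36), as well as Slamf7 (at least 2.2-fold) and the kinase Fyn (log2 1.21), while Cd84 (log2 -0.067) and Ly9 (log2 -0.27) were not called.

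Receptors of cytokines and their SOCS inhibitors gave 9 higher and 7 lower among 29 tested genes, with a median of -0.16. Il7r, the survival receptor of naive cells, stood at 43892, 35062 and 34938 on the naive and 1664, 2211 and 3614 on the TFH arrays (log2 -3.99, SE 0.28). Il4ra stood at 4600, 3992 and 3818 against 334, 349 and 379 (log2 -3.54, SE 0.12), with all TFH arrays far below all naive arrays. The interferon receptor genes Ifngr2 (log2 -2.30), Ifngr1 (log2 -1.16) and Ifnar1 (log2 -1.10) were lower too. Il2rb (log2 3.02) and Il2ra (log2 2.01), chains of the interleukin 2 receptor, were higher. The paper describes Il2ra as missing or very low in TFH cells, as in naive cells. That statement is of level, while the log2 value is a change. The 8 Treg markers, Il2ra among them, together summed to 8354, 9266 and 9793 units on the TFH arrays. Il1r1, the signalling receptor of interleukin 1, stood at 20, 30.2 and 20 against 5720, 3308 and 2691, and its decoy Il1r2 at 55.5, 184 and 89.5 against 27905, 14096 and 8079. In both, the naive arrays were at or near background. Il6ra (log2 -0.19), Il6st (log2 0.37) and Il21r (log2 -0.93), the receptors of the cytokines that act on TFH cells, were not called, although Il21r passed by a small margin without the d25 naive array, without the d25 TFH array (-1.01) and without slide 3 (-1.05).

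Genes of antigen-receptor signalling were called in both directions, 5 of 29 higher and 5 lower (34.5% called, against 21.2% of all tested genes), with a median of 0.12. The phosphatase gene Ptpn13 stood at 126, 319 and 201 in naive and 12776, 8883 and 8750 in TFH cells (log2 5.64, SE 0.35), and Ptpn11, encoding SHP-2, a phosphatase that associates with PD-1, stood at 10046, 11130 and 11028 against 107065, 82240 and 118506 (log2 3.24, SE 0.14). Zap70 (log2 1.24), Fyn (log2 1.21) and the phosphatase Ptpn22 (log2 1.16) were the other higher genes. The TEC kinases Txk (log2 -3.05) and Tec (log2 -2.90), the Ras activators Rasgrp2 (log2 -3.41) and Rasgrp1 (log2 -1.62) and the lipid kinase Dgka (log2 -1.14) were lower, whereas Lat (log2 -0.048) and Cd3e (log2 0.12) were not called. With scaling to the 75th percentile alone the median of this list turned to -0.24. Of 22 tested genes that respond to antigen, 7 were higher and 3 lower, with a median of 0.48. Egr2 (log2 2.44), Spry1 (log2 3.76), Nr4a2 (log2 2.18) and Dusp4 (at least 5.69-fold) were among the higher genes. Myc stood at 8898, 8885 and 9242 in naive and 1898, 2909 and 1894 in TFH cells (log2 -2.04, SE 0.17), Jun fell by 2.16 and Dusp5 fell by 1.29 on the log2 scale, and Nr4a1 (log2 0.69) and Cd69 (log2 0.03) were not called.

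Genes of mitosis were higher in TFH cells almost throughout. Of 34 tested, 32 were called higher and none lower, and the median was 3.67, or 3.40 with the 6 members that have only a bound set at it, beside -0.056 over all tested genes. Mki67, a marker of cycling cells, stood at 447, 669 and 60.9 on the naive and 17399, 9260 and 3256 on the TFH arrays (log2 4.94, SE 0.48, limma adjusted p = 3.72e-05), and both cell types were lowest on the d25 array. It lost its call under Tukey's test (adjusted p = 0.0703), run here on log2 values of the 4 cell types without the slide. The paper's methods name Tukey's test, but the adjustment over genes was added here. Ccnb2, a mitotic cyclin, stood at 588, 843 and 342 against 14651, 13336 and 9100 (log2 4.45, SE 0.26). Ccnb1, the other mitotic cyclin of the list, stood at 477, 438 and 230 against 7052, 6582 and 3332 (log2 3.89, SE 0.17). Their kinase Cdk1 was below background in naive cells and stood at 247, 989 and 259 in TFH cells, at least 5.23-fold higher. The arrays of the cell types did not overlap in any of these 4 genes, with TFH above, as in 24.8% of all tested genes. The exceptions in the list were the kinesin Kif23, at 812, 718 and 641 against 763, 1008 and 442 (log2 -0.046, SE 0.21), and the condensin gene Smc4, at 17102, 26003 and 18150 against 14256, 17555 and 14828 (log2 -0.37, SE 0.14). Of 36 genes of DNA replication, 21 were higher and none lower, with a smaller median of 1.13. Tk1 (log2 4.73), Mcm10 (log2 4.62), Rrm2 (log2 4.10) and Uhrf1 (log2 3.56) differed most among them. Regulators of the cell cycle gave 10 higher and 1 lower of 23. They included both Ccna2 (log2 4.42) and E2f8 (log2 4.61) and the inhibitors Cdkn1a, at least 8.13-fold, Cdkn2c (log2 2.36) and Cdkn2a (at least 4-fold), whereas Cdkn2d was lower (log2 -1.18) and Cdkn1b was not called (log2 -0.19).

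Promoters of 3 mitosis genes are shown because this list moved together; they and the motifs CCAAT and TTTGAA were chosen after the values were seen. All are on the minus strand of GRCm38.p6, from RefSeq, with Cdk1 at chr10:69352863-69353162, Ccnb1 at chr13:100786437-100786736 and Ccnb2 at chr9:70421505-70421804. Capitals mark CCAAT, the box read by NF-Y, also as its reverse complement ATTGG, and TTTGAA, a cell cycle homology region.
Cdk1: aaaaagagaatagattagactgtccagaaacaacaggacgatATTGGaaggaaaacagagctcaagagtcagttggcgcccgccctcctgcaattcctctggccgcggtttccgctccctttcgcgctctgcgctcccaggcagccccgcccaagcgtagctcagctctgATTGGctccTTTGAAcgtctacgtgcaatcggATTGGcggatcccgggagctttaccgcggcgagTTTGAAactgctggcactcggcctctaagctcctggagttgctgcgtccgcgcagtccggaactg
Ccnb1: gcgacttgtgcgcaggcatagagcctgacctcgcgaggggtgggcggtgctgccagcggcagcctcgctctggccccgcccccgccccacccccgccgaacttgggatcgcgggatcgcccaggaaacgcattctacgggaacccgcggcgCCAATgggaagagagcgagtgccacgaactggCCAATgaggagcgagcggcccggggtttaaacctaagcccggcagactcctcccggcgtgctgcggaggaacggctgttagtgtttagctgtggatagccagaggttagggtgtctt
Ccnb2: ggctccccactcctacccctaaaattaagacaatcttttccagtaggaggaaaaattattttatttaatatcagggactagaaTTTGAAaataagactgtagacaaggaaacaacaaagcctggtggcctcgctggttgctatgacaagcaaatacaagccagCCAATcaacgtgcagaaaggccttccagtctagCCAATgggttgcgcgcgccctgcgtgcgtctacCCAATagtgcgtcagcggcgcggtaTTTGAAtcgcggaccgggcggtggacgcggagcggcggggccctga
Cdk1 holds 3 CCAAT and 2 TTTGAA matches, the latter at -71 and -15, Ccnb2 holds 3 and 2, and Ccnb1 holds 2 and 0. TTTGAA was found in 73.3% of the 30 mitosis genes with a promoter in the table, against 17.9% of all promoters, 12.3% of those of tested genes, 15.2% of those of genes called higher and 14.3% of those of the DNA replication list. CCAAT was found in 76.7% of the mitosis promoters, 67.9% of those of the DNA replication list, 39.3% of those of tested genes and 37.4% of all. Both motifs were searched on both strands, the motifs can share end letters but no 2 matches do so in the sequences shown, and their absence from a window says nothing of the factor.

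Metabolic genes differed by pathway. In glycolysis 9 of 23 were higher and 2 lower, with a median of 0.85. Hk2, the inducible hexokinase, was below background in naive cells and stood at 490, 704 and 407 in TFH cells, at least 6.82-fold higher. Hif1a, which drives glycolytic genes, stood at 2837, 2675 and 2818 against 29827, 19955 and 24970 (log2 3.15, SE 0.22). Aldoc (log2 2.89), the lactate exporter Slc16a3 (log2 2.45) and Tpi1 (log2 2.18) were higher, and the glucose transporter Slc2a3 (log2 -1.13) and Pdk1, which holds pyruvate back from mitochondria (log2 -2.14), were lower. Slc2a1, the main glucose transporter of activated T cells, was not called (log2 -0.18). Gapdh (log2 1.33) and Pgk1 (log2 1.08) lost their calls with scaling to the 75th percentile alone, at 0.63 and 0.81, and Pgk1 without slide 1 as well, at 0.98. Of 74 genes of oxidative phosphorylation, 1 was called, the muscle-type subunit Cox7a1 (higher, log2 1.99), and the median was 0.16, or -0.067 with scaling to the 75th percentile alone. None of 84 cytosolic ribosomal protein genes was called by limma. At an unadjusted limma p below 0.05 there were 30 (29 of them lower in TFH cells), against 8037 of all 12412 tested genes. Their median was -0.087, and 32 had all TFH arrays below all naive arrays, against 26.9% of all tested genes. The lack of calls depended on the scaling: without quantile normalisation the median of these genes was -0.95 and 33 were called lower. Sterol and fatty acid genes gave 1 higher, Scd2 (log2 1.55), and 3 lower of 27. That is 14.8% called, below the 21.2% of all tested genes. Mvd (log2 -1.12) and Elovl6 (log2 -1.10) were among the lower, and Elovl6 lost its call by a small margin without the TFH d12 replicate 1 array. In amino acid transport 2 of 11 were called (18.2%, against 21.2% of all tested genes), a share no larger than the background, since Slc43a1 was at least 26.7-fold higher and Slc7a10 was higher (log2 3.68), while Slc7a5 (log2 -0.63) and Slc3a2 (log2 -0.15), which together form the leucine transporter, were not called.

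Interferon response genes were lower in TFH cells in 9 of 26 and higher in 1, with a median of -0.56. Oas2, an antiviral enzyme, stood at 444, 1142 and 730 in naive and 65.2, 44.9 and 20 in TFH cells (log2 -4.21, SE 0.40). Usp18, which restrains interferon signalling, stood at 3310, 5406 and 5094 against 490, 1329 and 1338 (log2 -2.24, SE 0.14). Mx1 went the other way, from 67.2, 280 and 116 to 1116, 667 and 642 (log2 2.59, SE 0.46), and Isg15 was not called (log2 0.34). Of 22 genes of survival and death, 4 were higher and 2 lower, or 27.3% called against 21.2% of all tested genes, a share near the background. Bcl2, which keeps naive cells alive, fell by 1.78 on the log2 scale and Dapl1 fell by 4.22, whereas Bcl2a1d, of an anti-apoptotic family, whose probe may also read near-identical copies of the gene, was higher (log2 3.43), and Pmaip1, encoding Noxa, was at least 8.75-fold higher, with Bmf higher too (log2 1.37, or 0.91 and not called without slide 3). Gimap7 (log2 -1.71) and Gimap4 were the lower genes among 8 GIMAP GTPases, against 8.09% of all tested genes. Gimap7 lost its call under the adjusted Tukey's test, and Gimap4 was at the threshold and lost its call without the naive d12 replicate 1 array (-0.98), the d25 naive array (-0.96) or the d25 TFH array (-0.86). Of 12 tested regulators of G-protein signalling, which dampen chemokine receptors, 5 were higher and none lower: Rgs16, at 85.8, 52.1 and 65.1 in naive and 16561, 4427 and 11570 in TFH cells, Rgs8 (at least 7.86-fold), Rgs1 (log2 2.82), Rgs9 (at least 2.16-fold) and Rgs10 (log2 1.22), which lost its call with scaling to the 75th percentile alone.

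A list of genes known from BMP signalling, neurons or muscle gave 12 higher and 1 lower of 18, with a median of 3.22, or 2.26 with the 4 members that have only a bound set at it. This list was assembled with earlier results of these arrays known, so its count is a description. Besides Sostdc1, it held Popdc2, a membrane protein of muscle, at 51.2, 159 and 93.5 against 9376, 8810 and 10010 (log2 6.68, SE 0.47). Smtn, a protein of smooth muscle fibres, stood at 263, 488 and 277 against 30559, 24119 and 32621 (log2 6.46, SE 0.34). Penk, the precursor of enkephalins, stood at 155, 121 and 53.9 in naive and 5981, 6554 and 15332 in TFH cells (log2 6.39, SE 0.48), highest on the d25 TFH array. The other higher members included Actg2 (at least 35.8-fold), Bmp7 (log2 4.37), Nrn1 (log2 3.24) and the noradrenaline enzyme Dbh (at least 4.74-fold), and the lower member was Sema4a (log2 -2.35).

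**Figure D2:**
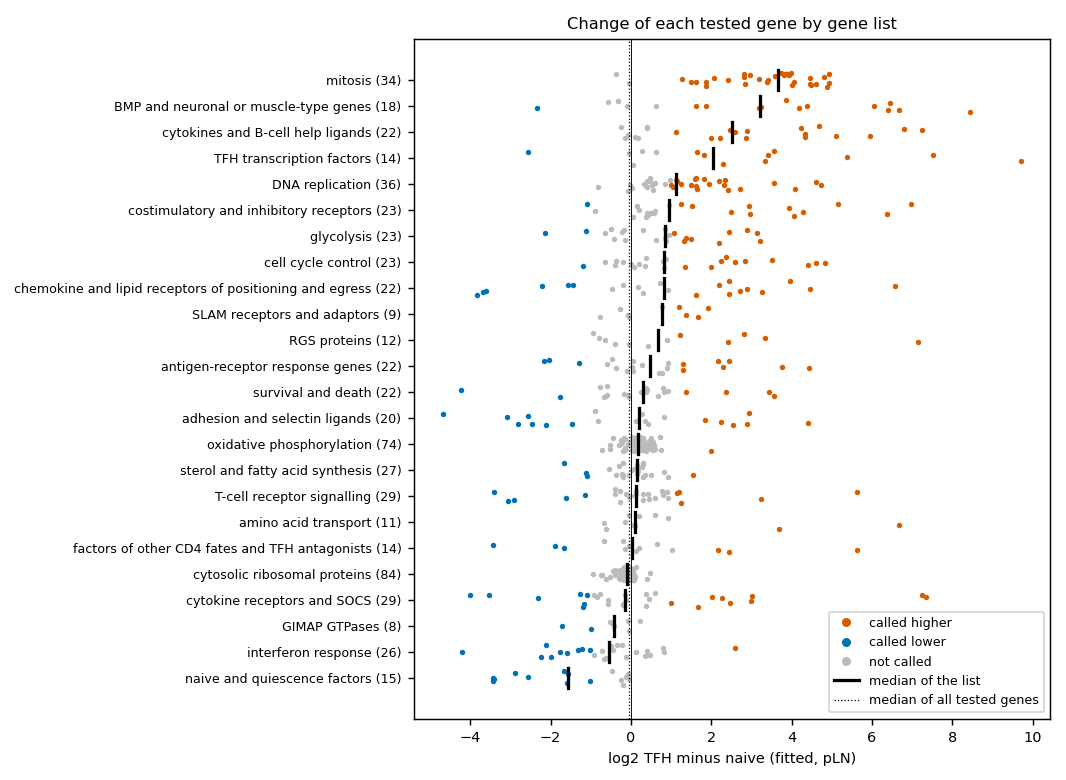
Fitted log2 difference of TFH minus naive T cells (horizontal axis) for each tested gene of 24 lists (rows, number tested in brackets), coloured by its call; thick bars are list medians and the dotted line the median of all tested genes. Mitosis genes have a median of 3.67 with 32 of 34 called higher, while ribosomal protein and oxidative phosphorylation genes lie around 0.

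Markers of other cell types were measured on the same arrays. The summed intensity of 13 B-cell markers was 12276, 11985 and 4940 on the naive and 23189, 6512 and 6554 on the TFH arrays, highest on the d12 replicate 1 TFH array and overlapping between cell types, and Cd22 (log2 1.13) was called higher and Bank1 (log2 -1.03) lower. Bank1 lost its call without any 1 of the 6 arrays but that TFH array, at -1.06 to -0.73. Of the defining B-cell genes, Cd79a stood at 1081, 780 and 381 against 1812, 212 and 308, and the plasma-cell gene Jchain at 15067, 19150 and 1621 against 53968, 9182 and 1205. Neither was called, although Cd79a passed as lower without slide 1 (-1.09), and both were highest on that same array, as were Cxcl13 and Derl3. Without this TFH array 2522 genes were called, 2432 of them also called with it. The 5 plasma-cell markers summed to 30660, 35534 and 14781 on the naive and 91576, 39572 and 31117 on the TFH arrays, and Xbp1 (log2 1.10) and Derl3 (log2 1.83) were called higher. Without the TFH d12 replicate 1 array both lost their call, Xbp1 at 0.98 and Derl3 at 1.57 with a limma adjusted p of 0.0501, whereas Cd22 stayed called at 1.14. Of 6 germinal-centre B-cell markers, Mybl1 and Gcnt3 were undetected on all 6 arrays, and Plxnb2 was called higher (log2 1.86). Myeloid markers summed to 107907, 118073 and 110369 on the naive and 96517, 92664 and 95786 on the TFH arrays. Of these, Cd68 (log2 3.25), Lyz2 (log2 1.75) and Csf1r (log2 1.26) were called higher, and Clec9a was undetected on all 6. Their part in the results was not tested.

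Markers of CD8 and NK cells summed to 28459, 23466 and 28399 on the naive and 20876, 16876 and 28042 on the TFH arrays. Cd8b1 (log2 -1.03), Klrd1 (log2 -2.61) and Prf1 (log2 -2.94) were lower and Klrb1c was higher (log2 4.67). Cd8b1 lost its call without the d12 replicate 2 array of naive cells (-0.99) or of TFH cells (-0.89). Of 12 genes of memory or effector CD4 cells, 8 were higher in TFH cells and Il18r1 was lower (log2 -1.19, or -0.99 and not called without the TFH d12 replicate 1 array). Among the higher were S100a4, at 1858, 8250 and 9383 against 68233, 49835 and 47800, and Anxa2 (log2 3.34). In naive cells the summed level of these 12 genes was 128394, 173124 and 183586, lowest on the d12 replicate 1 array, and the naive levels of S100a4, Cxcr3, Il4, Il2 and Ccl5 were lowest on that array too. The plot of marker sums shows both of these array differences. Of 8 genes of Treg cells, 4 were higher in TFH cells and 3 lower: the Helios gene Ikzf2 stood at 40.7, 117 and 92.3 in naive and 5878, 6093 and 6497 in TFH cells, at least 74.4-fold higher, together with Nrp1 (log2 4.54), Il2ra and Klrg1, while Foxp3, Ikzf4 (log2 -1.78) and Gpr83, which was below background in both cell types, were lower. Foxp3, Gpr83 and Klrg1 lost their calls with normexp background correction. Stromal and platelet markers were mostly undetected, with Pdpn, Cdh5, Col3a1, Pf4 and Ppbp below background on all 6 arrays, and Col1a1 alone was called, at least 1.53-fold higher in TFH cells.

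**Figure D3:**
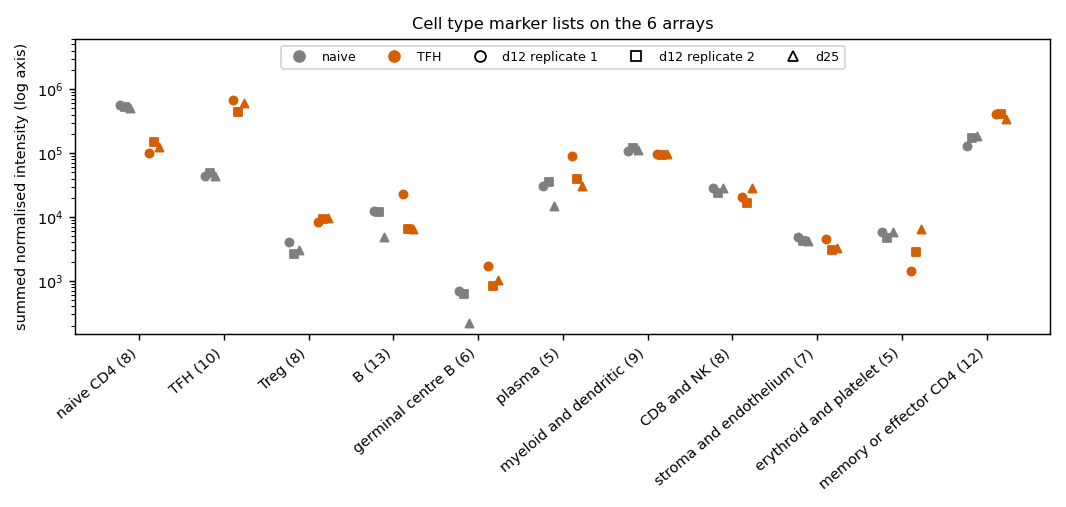
Summed normalised intensity (log axis) of 11 marker lists (number of genes measured in brackets) on the 3 naive (grey) and 3 TFH (orange) arrays, with the symbol giving the pair. TFH markers are at 443026 or more on the TFH arrays and at 48380 or less on the naive arrays, and the B-cell sum is highest on the d12 replicate 1 TFH array at 23189.

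The change from naive T to TFH cells was set against the change from Treg cells to follicular regulatory T cells (TFR cells) on the same 3 slides, which uses none of the same arrays. Treg cells had been sorted as GFP+ PD1- GL7- and TFR cells as GFP+ PD1hi, with or without GL7. TFR minus Treg gave 1845 called genes (14.9%), of which 1476 were also called in TFH minus naive. That is 80.0% of the regulatory and 56.2% of the helper genes, and 1460 of the 1476 had the same sign. The difference of the changes was itself called for 1078 genes (8.69%), 653 with the more positive change in the helper lineage and 425 with the more positive change in the regulatory lineage. Since the TFH gate required GL7 and the TFR gate did not, gate and lineage cannot be told apart here. The differences can be sized for only part of these genes. In 744 of the 1078 both changes were measured, in 134 the helper change has only a bound, and in 200 the size is unknown because a whole lineage or the regulatory change lay below background. Measured here means detected on at least 1 array of each cell type. Sostdc1, for instance, counts as measured with 1 of 3 Treg arrays, so part of the 744 sizes may rest on background signal. The order of the genes below is that of the fitted values, which below background rest on the signal there. The TFR array of d12 replicate 2 had a median local background of 268 units, against 36 to 78 on the other arrays, and without it 962 genes were called, 929 of them among the 1078. The count fell to 703 when slide 2, which holds that array, was left out, 670 of them among the 1078.

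Ascl2 had the largest fitted difference between the lineages. It stood at 344 ± 138 in Treg and 1518 ± 751 in TFR cells (SD, n = 3), a log2 difference of 2.10, and since the rise from naive to TFH cells is a bound, the changes differ by at least 6.76 on the log2 scale (limma adjusted p = 6.18e-05). Plagl1, a zinc finger factor, was below background in naive cells at 23.2, 39.5 and 20 and stood at 3573, 1535 and 5913 in TFH cells, but was present in both Treg cells at 2707 ± 664 (SD, n = 3) and TFR cells at 4425 ± 820 (SD, n = 3), and its changes differ by at least 4.67. These Plagl1 values are of its probe of highest mean, and only 2 of its 4 tested probes were called higher in TFH than in naive cells. The changes differ by at least 5.34 for Abcc3, 4.67 for Fam43a and 3.91 for Slc43a1, all below background on the naive arrays. Cpeb1, which encodes an RNA-binding protein, stood at 915, 854 and 1245 on the TFH arrays, at least 13-fold above naive cells, and was below background in naive, Treg and TFR cells, so the lineages cannot be compared in size. Among the receptors of positioning P2rx7 had the largest such difference (4.72, limma adjusted p = 0.000119), with a TFR minus Treg value of -0.25. Cxcr5 was called higher in both lineages, with log2 differences of 6.57 and 1.98, as was Bcl6 with 3.40 and 1.55, with called differences of 4.59 and 1.85 between the changes. Among the lists, the share called for the difference was highest for the TFH factors (8 of 14), the genes of BMP, neurons and muscle (10 of 18), the costimulatory receptors (12 of 23) and the cytokines and ligands (10 of 22), against 8.69% of all tested genes. It was near or below that share for the interferon response (2 of 26), amino acid transport (1 of 11) and SLAM (1 of 9) lists. The lists were chosen with earlier results of these arrays known. The paper names several genes of the BMP, neuron and muscle list for their regulation in TFH or TFR cells on these arrays. These shares are therefore descriptions. By limma none was called among 74 genes of oxidative phosphorylation, 84 of ribosomal proteins, 27 of sterol and fatty acid synthesis and 8 GIMAP genes, where 10, 3, 10 and 5 had an unadjusted p below 0.05. Over all 18698 tested probes, 5675 had an unadjusted limma p below 0.05 for this difference.

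On the other side, Pdlim4 was lower in TFH than in naive cells but differed less between TFR and Treg cells (-0.97), with a difference of -4.78 between the changes, and Lypd6b gave -4.25. For the other 4 genes that lead on this side the size of the lineage difference is unknown, since one lineage lay below background. Elovl7, a fatty acid elongase, stood at 371, 631 and 634 in naive cells and was below background on all TFH, Treg and TFR arrays, at least 10.2-fold lower in TFH than in naive cells. The angiogenic factor Vegfc, the neuronal adhesion gene Dscam and Tdpoz4 were undetected in TFH and naive cells but present in TFR cells, at 1014 ± 153, 1336 ± 411 and 403 ± 162 (SD, n = 3), and entered the test through TFR cells alone. Of the proliferation genes, 33 of 34 mitosis genes were higher in TFR than in Treg cells, against 10.4% of all tested genes, with a median of 3.01. In DNA replication 25 of 36 were higher, with a median of 1.62, beside 21 and 1.13 in the helper lineage. For the difference of the changes 4 of 34 mitosis genes were called (11.8%), against 8.69% of all tested genes. They were Ccnb2, Kif20a and Tpx2 with the larger rise in the helper lineage, and Kif23, with 2.73 on the log2 scale from Treg to TFR cells. In DNA replication Tk1 and Rrm2, 2 of 36 (5.56%), were called for the difference. Il2ra and Il2rb, which were higher in TFH than in naive cells, gave log2 differences of -0.37 and 0.17 in the regulatory lineage, and their changes differ by 2.38 and 2.86. The paper describes Il2ra as strongly expressed by Treg cells and as missing or very low in naive cells, so the lineages start from unlike levels of it. Il7r fell by 3.99 on the log2 scale in the helper lineage against -0.59, a called difference of -3.41.

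**Figure D4:**
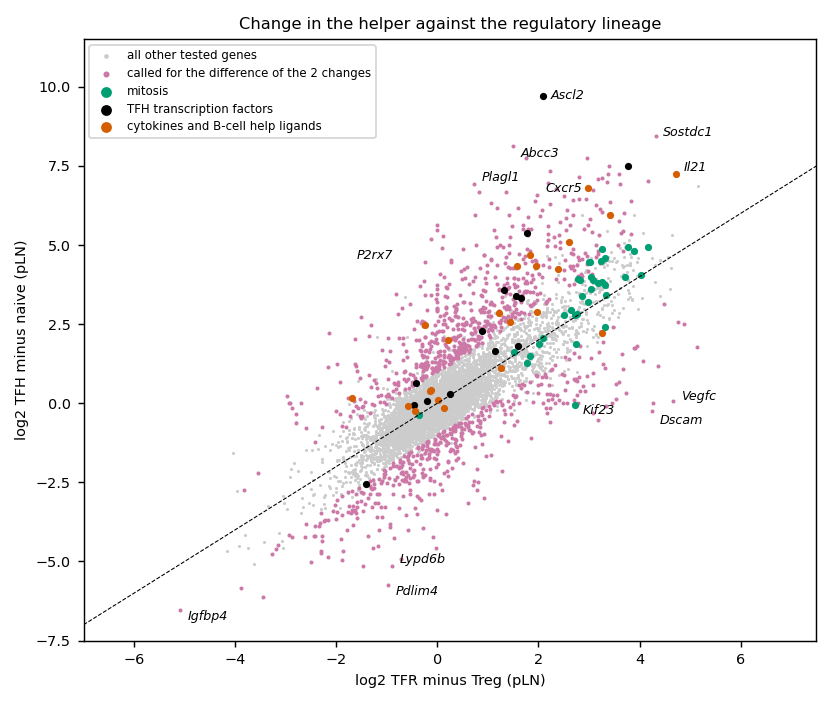
Each tested gene by its log2 difference of TFR minus Treg (horizontal axis) and of TFH minus naive T cells (vertical axis) in pLNs; genes called for the difference of the changes are pink, 3 lists are coloured, and the dashed line marks equal change. Genes below background are drawn at their fitted values. Sostdc1 lies at 4.32 and 8.44, while most mitosis genes lie near the dashed line and Kif23 lies at 2.73 and -0.046.

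The difference between TFH and naive T cells was last compared between d25 and d12. The sample labels give 2 slides at d12 and 1 at d25, whereas the series' design text counts 3 independent experiments at d12 and 2 at d25, and the labels were followed. With 1 array of each cell type at d25, the spread was taken from the groups with replicates among all 20 arrays, and day cannot be told apart from slide. The single d25 pair limits the precision, so a lack of calls does not show that the days were alike. The day difference was at least 1 in size, on the log2 scale, for 335 genes. Of 12412 genes, 0 were called by limma (0%), against 545 at an unadjusted p below 0.05, and the smallest adjusted p was 0.12. Without the naive d12 replicate 2 array 5 genes were called (S100a4, Phactr2, Klrc1, Tmem35a and Csta2), without the TFH d12 replicate 1 array 2 (Apoc4 and Dnahc7a) and without the TFH d12 replicate 2 array 2 (Dnahc7a and Try10). With no filter on dim probes 77 genes were called, among them Csta2 and Dbh. Dbh stood at 266, 189 and 935 on the TFH arrays and at the floor on all naive arrays, so its day difference has no measured size, and it was not called with the filter (limma adjusted p = 0.147). For Penk the d25 difference was larger by 2.64 on the log2 scale (adjusted p = 0.405). For the mitosis list, the median difference was 3.64, 3.36 and 3.61 on the 3 slides, and for the TFH factors it was 2.44, 1.84 and 1.88. Of the 2628 genes called with the days merged, 2481, 2263 and 2332 differed by 1 or more, on the log2 scale and with the called sign, on the d12 replicate 1, d12 replicate 2 and d25 slide.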

How the data were processed

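RNA of sorted lymph node T cells had been hybridised on single-colour Agilent arrays that print each probe 4 times, and 12 of the 20 arrays (4 cell types on 3 slides) entered the fits, the other 8 only the normalisation, the day comparison and an alternative. The deposited scanner files give an intensity per feature, which Agilent Feature Extraction 10.7.3.1 had background-subtracted, and marks for features well above background, saturated or uneven. The authors' own value table, of normalised intensity, was used as an alternative.

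Values were rebuilt as the study's methods describe. Features that were flagged, outside 1.42 times the interquartile range or with a pixel coefficient of variation above 0.5 were left out, and the rest were averaged by geometric mean. After quantile normalisation the 75th percentile was set to 1500 and values under 20 to 20, and log2 was taken. Median absolute log2 differences from the authors' table were 0.0347 to 0.0362. A probe was detected with at least 3 of 4 features well above background, and 18698 of 39429 probes, for 12412 genes, were tested because all 3 arrays of at least 1 lymph node cell type detected them. A gene was read by its tested probe of highest mean, and 6 of 3292 genes with several tested probes had probes called in opposite directions. Symbols came from the arrays' annotation, of which 2046 probes were updated through RefSeq.

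limma 3.58.1 (R 4.3.3) fitted cell type with slide as a block (6 residual degrees of freedom), two-sided, with Benjamini-Hochberg adjustment over all tested probes. Slide pairs the arrays: deviations of the TFH and naive arrays from their group means correlated at 0.62, 0.50 and 0.60 on the 3 slides, against 0.27 at most across slides. The named genes were the 12 with the largest called change each way with the same sign on all slides, the called list members with the largest changes and others a list's account needs, and the 6 each way with the largest lineage difference. The arrays, lists and motifs were chosen with earlier results of these data known. A bound used the higher of the lowest signal well above background and the probe's own signal on each array. Other values, background correction (normexp), scaling, filters, arrays, blocks and Tukey's test were tried as alternatives, and scripts were tested on simulated data. Tukey's test is named in the study's methods. Here it was run on log2 values of the 4 lymph node cell types, days merged, with an added Benjamini-Hochberg adjustment. Slides 2 and 3 were scanned on the same day. Figures were drawn with matplotlib 3.10.9. Some genes of the lists are counted but not reported by name here.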

Additional observations from a re-analysis of the deposited data

Results flagged for a closer look

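The change from naive T to TFH cells differed from the change from Treg to TFR cells for 1078 genes by limma's test of the difference, and genes that lead that list and have a measured size or a bound follow. With the larger rise in the helper lineage, the changes differ on the log2 scale by at least 6.76 for Ascl2, 5.34 for Abcc3, 4.67 for Plagl1, 4.67 for Fam43a and 3.91 for Slc43a1, since these were below background in naive cells. For Plagl1 only 2 of its 4 tested probes were called higher in TFH than in naive cells. In Treg and TFR cells Abcc3 stood at 151 ± 72.5 and 408 ± 101, Fam43a at 188 ± 38.3 and 637 ± 154 and Slc43a1 at 273 ± 14.9 and 486 ± 25.9 (SD, n = 3). On the other side they differ by -4.78 for Pdlim4 and -4.25 for Lypd6b. Pdlim4 stood at 484 ± 31 in Treg and 255 ± 75.9 in TFR cells, and Lypd6b at 348 ± 75.2 and 192 ± 73.8 (SD, n = 3), so both were low in the regulatory lineage before and after. Groups of 3 arrays were not tested for single outlying arrays.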

How the results depend on the processing

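The count of 2628 genes called between TFH and naive T cells lay between 2053 (normexp) and 2886 (no filter on dim probes) over the alternatives, and between 2472 and 2723 when single arrays were left out. The share called higher stayed between 56.5% and 65.2%, against 61.8%. With no replicate block for slide 2532 genes were called, all of them among the 2628, and with slide as a random block 2628. Tukey's test gave 2186 after the added Benjamini-Hochberg adjustment and 2416 at its unadjusted p below 0.05. Of 202 called genes named in the text, 184 were tested with the stricter filter on dim probes and kept their call, and the other 18 were not tested there. Under the other alternatives at most 7 of the 202 lost their call, apart from Tukey's test, and none changed sign. Tukey's test with the added adjustment ended 20 calls, those of Foxp3, Tbx21, Il13, Il2, Xcl1, Ccl5, Ccr4, Cxcr4, Rasgrp1, Mki67, Bmf, Gimap7, Bank1, Derl3, Csf1r, Cd8b1, Il18r1, Phactr2, Tmem35a and Dnahc7a. Normexp ended those of Foxp3, Slamf7, Elovl6, Bank1, Cd8b1, Klrg1 and Gpr83. Leaving out the slide block ended the calls of Xcl1, Ccl5, Bmf, Il18r1, Phactr2 and Tmem35a alone among the named genes. Scaling to the 75th percentile alone, which put the median of all genes at -0.11, ended the calls of Ccl5, Zap70, Gapdh, Pgk1, Rgs10, Bank1 and Xbp1. The lineage difference, at 1078 genes, gave 785 with no replicate block, 837 without the filter, 844 with normexp and 962 to 1147 without single arrays. Without slides 1, 2 and 3 it gave 873, 703 and 807, with fewer arrays in the fit. The day difference, at 0 genes, gave 77 without the filter, Dbh and Csta2 among them, 0 with no replicate block, and 0 to 5 without single arrays. The cause of the 77 was not tested. Probes below background limit the sizes of the 559 genes unseen in naive cells to bounds.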
